A study of Mus musculus with 9 samples.

Results

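Toll-like receptors and the proteins that carry their signal were followed through the neutrophil transcriptome as a set of 10 genes chosen by name, namely Tlr1, Tlr2, Tlr4, Tlr6, Tlr13, Cd14, Myd88, Irak3, Irak4 and Unc93b1. Of these 10 genes, 9 were among the 7197 genes listed and 8 were among the 6673 genes tested, because Tlr1 was not listed and Cd14 fell below the mean of 10 normalised counts asked of a gene before testing. RNA had been prepared from neutrophils sorted from bone marrow of mice 2 months old and sequenced from the 3′ ends of transcripts. There were 5 libraries from Rragc+/+ mice and 4 from RragcS74N/+ mice. RragcS74N/+ mice carry 1 edited Rragc allele, made by genome editing in the germline of C57BL/6 mice, so every cell of the animal holds the change, and the edited allele also carries silent changes. Rragc encodes RagC, a GTPase that with its partners brings mTORC1 to the lysosome when nutrients are present, and the edited allele encodes an active form. Rragc+/+ libraries had a mean Rragc level of 71.0 ± 10.3 normalised counts (SD, n = 5), and RragcS74N/+ libraries of 65.8 ± 9.52 (SD, n = 4), which does not check the labels, since reads of both alleles are counted together.

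Toll-like receptors are sentinels that recognise molecules shared by microbes. Some sit at the cell surface and bind lipids and proteins of bacterial envelopes, whereas others sit in endosomes and bind nucleic acids, where the transmembrane protein Unc93b1 escorts them. Most of them pass the signal through the adaptor Myd88, which gathers the kinase Irak4 and its relatives into a complex that turns on NF-κB and inflammatory genes, whereas Irak3 restrains that complex. Neutrophils are short-lived phagocytes that use these receptors to be primed by bacterial products.

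Values below are the deposited normalised counts, that is reads per gene divided by 1 size factor per library, and 1 read was worth 0.659 to 1.17 of them. Libraries held between 1214295 and 1973957 reads over the listed genes. The sorting markers Ptprc, Itgam and Ly6g were all listed, with a summed level of 4963 to 5838 normalised counts in Rragc+/+ and 4972 to 6159 in RragcS74N/+ libraries. Rragc+/+ replicate 2 stood apart, with the fewest reads and with the steepest slope of gene level on 3′-end GC content, at 0.30 on the log2 scale per 10 GC points. That slope lay between -0.11 and 0.11 in the other 4 Rragc+/+ libraries and between -0.21 and -0.01 in the RragcS74N/+ libraries, so it moved with genotype in part. Its part in the results was not tested beyond the refits given below.

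All 9 listed genes together took 0.0773% to 0.121% of the listed total, with a summed level of 1072 to 1566 normalised counts in Rragc+/+ and 1182 to 1457 in RragcS74N/+ libraries. Myd88 had the highest mean, followed in order by Irak4, Tlr13, Tlr2, Unc93b1, Tlr4, Irak3, Tlr6 and Cd14. Because reads came from 3′ ends, values do not scale with transcript length and were not divided by it, and how well each 3′ end was captured was not measured. Each step of the order was tested within libraries with an exact sign-flip permutation test (two-sided, every sign pattern, n = 9 libraries, Benjamini-Hochberg over the 8 steps). Myd88 exceeded Irak4 in 8 of 9 libraries, by 0.81 on the log2 scale (adjusted exact p = 0.0188). Tlr13 exceeded Tlr2 in 8 of 9 libraries, by 0.36 (adjusted exact p = 0.0188), and Unc93b1 exceeded Tlr4 in 8 of 9, by 0.75 (adjusted exact p = 0.0188). The steps at the bottom were the clearest, since Irak3 exceeded Tlr6 by 1.42 and Tlr6 exceeded Cd14 by 1.91, each in 9 of 9 libraries (adjusted exact p = 0.0156 for both). Irak4 and Tlr13 (0.26, higher in 7 of 9, adjusted exact p = 0.0521), Tlr2 and Unc93b1 (0.10, 4 of 9, adjusted exact p = 0.820) and Tlr4 and Irak3 (0.18, 6 of 9, adjusted exact p = 0.268) did not differ beyond their spread. Without Rragc+/+ replicate 2 the order was taken again from the libraries kept, so its steps need not be the same pairs. There 4 of 8 steps passed instead of 5.

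**Figure D1:**
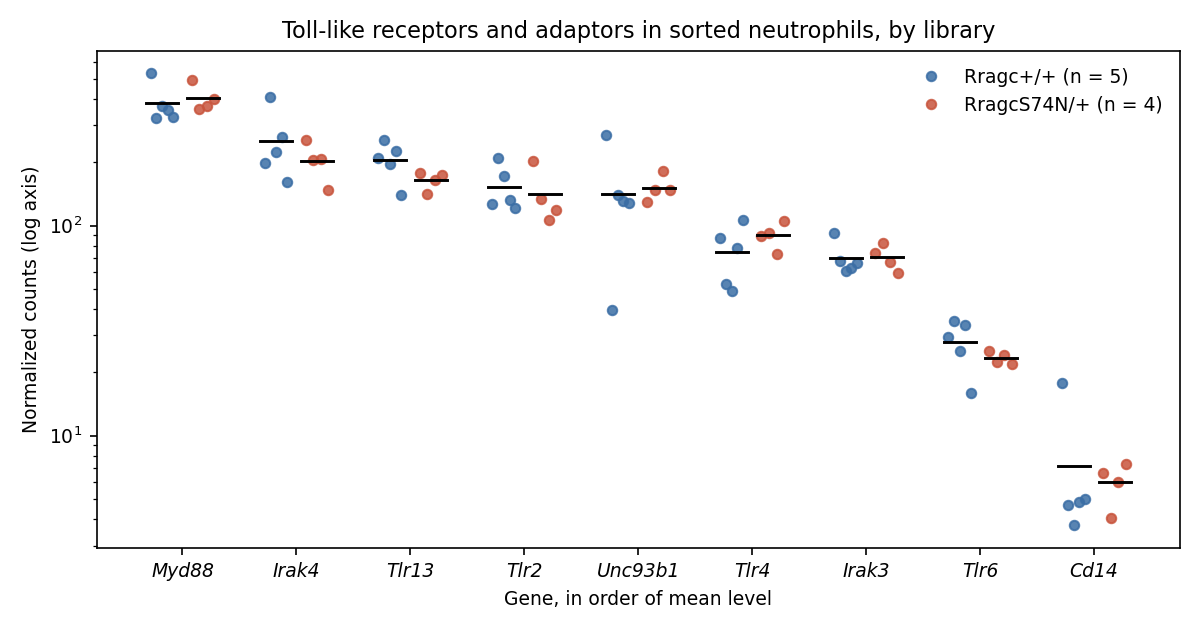
Level of each of the 9 listed genes in every library (normalised counts, logarithmic axis), with Rragc+/+ (n = 5) and RragcS74N/+ (n = 4) side by side; points are libraries and bars are group means. The genotypes overlapped for every gene, and the lone low point of Unc93b1 is Rragc+/+ replicate 2.

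The genotype comparison asks whether a constantly active RagC alters the level of these transcripts in young neutrophils. None of the 8 tested genes passed the test for a change. By limma on log2(value + 1) with Benjamini-Hochberg adjustment over all 6673 genes, 0 of 8 had an adjusted p below 0.05, as did 0 (0%) of all genes tested, and adjusted p lay between 0.713 and 0.976. At an unadjusted p below 0.05 the count was 0 of 8 with limma and edgeR, beside 5.81% of all genes with limma (3.81% lower and 2.01% higher in RragcS74N/+) and 6.89% with edgeR. The count was also 0 of 8 with DESeq2, for which no share over all genes is given. Genotypes overlapped for 8 of 8, and 1.69% of all genes had no overlap. Of the 8, 4 were lower and 4 higher in RragcS74N/+ libraries, and 46.6% of all genes were lower. The median log2 difference (RragcS74N/+ minus Rragc+/+) was -0.05 over the 8 and 0.02 over all genes tested. In these bulk libraries fewer cells holding a transcript and less of it per cell cannot be told apart. The erythroid markers Hba-a1, Hba-a2, Hbb-bs, Hbb-bt and Alas2 had a summed level of 1083 to 5506 normalised counts in Rragc+/+ and 369 to 2092 in RragcS74N/+ libraries (5 of 5 lower with an unadjusted limma p below 0.05, 0 of 5 with an adjusted p). Of 5 eosinophil and basophil markers 3 were listed, with a summed level of 46.9 to 121 in Rragc+/+ and 51.7 to 206 in RragcS74N/+ libraries. Prg2 had a log2 difference of 1.38 (limma unadjusted p = 0.0394, adjusted p = 0.713). Epx had one of 1.10 and Siglecf one of -0.14 (limma unadjusted p = 0.179 and 0.557). Prg2 was at 140.3 and 158.8 normalised counts in RragcS74N/+ replicates 2 and 4, beside 21.22 and 33.14 in replicates 1 and 3. In Rragc+/+ replicate 5 Prg2 was at 80.21. The part of erythroid cells, eosinophils and basophils in the values here was not tested.

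**Figure D2:**
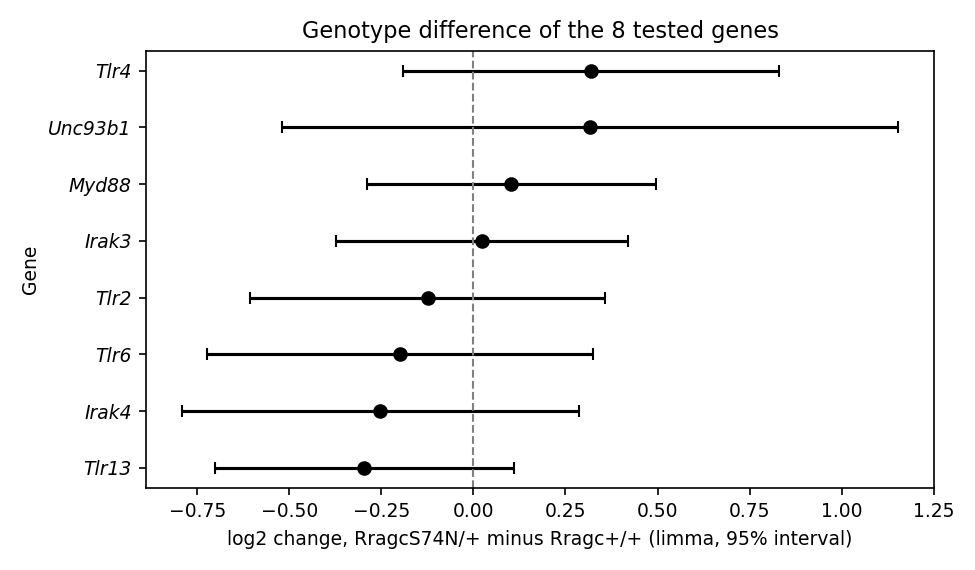
Log2 difference (RragcS74N/+ minus Rragc+/+) of the 8 tested genes with 95% confidence intervals from limma (n = 5 and 4 libraries). Every interval crosses 0, and that of Unc93b1 is the widest, from -0.52 to 1.15.

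Among the surface receptors, Tlr2 binds bacterial lipoproteins as a heterodimer with Tlr1 or Tlr6. Tlr2 was read at 127.1, 209.2, 171.5, 132.6 and 121.3 normalised counts in Rragc+/+ replicates 1 to 5 and at 203.6, 134.2, 106.9 and 119.1 in RragcS74N/+ replicates 1 to 4. One library of each genotype stood high, Rragc+/+ replicate 2 and RragcS74N/+ replicate 1, and the groups overlapped over most of their range. The log2 difference was -0.12 ± 0.22 (SE; limma adjusted p = 0.868), with a 95% interval of -0.61 to 0.36.

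Tlr6, which lies next to Tlr1 on chromosome 5 and pairs with Tlr2, was the lowest of the listed Toll-like receptors of the set. It was read at 29.64, 35.05, 25.31, 33.76 and 16.04 normalised counts in Rragc+/+ and at 25.2, 22.37, 24.1 and 21.95 in RragcS74N/+ libraries, from 16 to 45 reads per library. The Rragc+/+ libraries enclosed the RragcS74N/+ libraries on both sides, through replicate 5 at the bottom and the other 4 at the top. Group means were 28.0 ± 7.68 (SD, n = 5) and 23.4 ± 1.52 (SD, n = 4), and the log2 difference was -0.20 ± 0.24 (SE; limma adjusted p = 0.803). The spread of Tlr6 within genotypes was 1.29 times that of read counting alone, on the assumption that reads are independent molecules.

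Tlr4 is the receptor for lipopolysaccharide and takes its ligand over from Cd14. Tlr4 was read at 87.59, 52.58, 48.74, 77.98 and 106.3 normalised counts in Rragc+/+ and at 89.51, 92.52, 73.06 and 105.6 in RragcS74N/+ libraries. All RragcS74N/+ libraries lay within the Rragc+/+ range, 3 of 4 above its median, and the log2 difference was 0.32 ± 0.24 (SE; limma adjusted p = 0.729), with a 95% interval of -0.19 to 0.83. With each library's trend on GC content removed, it was 0.19. Against the GC slope of the libraries, as a description over n = 9, the level of Tlr4 had a Pearson r of -0.81, and those of Tlr13, Irak4 and Tlr6 had an r of 0.76, 0.71 and 0.71, while the other 5 genes lay between -0.55 and 0.32. The GC content of their 3′ ends does not order these values, since Tlr4 (36.0%) and Irak4 (34.2%) are both poor in GC and have opposite signs.

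Cd14, the co-receptor that hands lipopolysaccharide to Tlr4, was near the limit of detection with 4 to 27 reads per library. It was read at 17.78, 4.674, 3.749, 4.823 and 5.013 normalised counts in Rragc+/+ and at 6.631, 4.067, 6.025 and 7.315 in RragcS74N/+ libraries. Rragc+/+ replicate 1 was well above all the rest. An exact permutation test over genotype labels gave a log2 difference of -0.04 (two-sided exact p = 0.992, n = 5 and 4). Without Rragc+/+ replicate 1, a setting chosen after seeing its value, the difference was 0.31 (two-sided exact permutation p = 0.114), and the remaining 4 Rragc+/+ libraries averaged 4.57 ± 0.561 (SD).

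Tlr13, an endosomal receptor that recognises bacterial ribosomal RNA, had the highest mean of the listed receptors in the set. It was read at 210.7, 254.7, 195.9, 227.5 and 139.4 normalised counts in Rragc+/+ and at 179.0, 141.3, 164.9 and 173.5 in RragcS74N/+ libraries. The 4 RragcS74N/+ libraries all lay below 4 of the Rragc+/+ libraries and above replicate 5. Means were 205.6 ± 43.0 (SD, n = 5) and 164.7 ± 16.6 (SD, n = 4), with a log2 difference of -0.30 ± 0.19 (SE), a 95% interval of -0.70 to 0.11 and a limma adjusted p of 0.713. Its unadjusted p of 0.139 was the smallest of the 8 with limma. The log2 difference was -0.21 without Rragc+/+ replicate 2 (limma unadjusted p = 0.266) and -0.24 with the GC trend removed (limma unadjusted p = 0.194). Without Rragc+/+ replicate 5 the log2 difference was -0.43 (limma adjusted p = 0.326). Its unadjusted p in that fit was 0.0233, and 13.7% of all genes then fell below 0.05. In the same 8 libraries Tlr6 and Tlr13 had no overlap between genotypes, both lower in RragcS74N/+, as had 6.29% of all genes in either direction and 4.35% in this one. For both genes replicate 5 was the only Rragc+/+ library below the RragcS74N/+ values, so leaving it out fixed this outcome in advance. Tlr13 lies on the X chromosome, and the Y-linked gene Ddx3y was read in every library.

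Unc93b1, which carries nucleic acid-sensing receptors from the endoplasmic reticulum to endosomes, was the most uneven of the set. It was read at 271.3, 39.73, 140.6, 131.0 and 128.3 normalised counts in Rragc+/+ and at 130.0, 147.4, 181.5 and 148.4 in RragcS74N/+ libraries. Rragc+/+ replicate 1 was the highest of the 9 libraries and replicate 2 the lowest, 6.83-fold apart, while the other 7 lay close together. The log2 difference was 0.32 ± 0.39 (SE; limma adjusted p = 0.803) and turned to -0.08 without Rragc+/+ replicate 2. The 3′ end of Unc93b1 is the richest in GC of the set, at 54.6%. With the GC trend removed the difference was 0.57, and on recovered reads it was 0.07 with edgeR and 0.09 with DESeq2.

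Myd88, the adaptor shared by most Toll-like receptors and by receptors of the interleukin-1 family, was read at 530.8, 324.8, 373.0, 354.5 and 327.9 normalised counts in Rragc+/+ and at 494.6, 359.9, 372.8 and 399.2 in RragcS74N/+ libraries. Replicate 1 of each genotype was the highest of its group, and the remaining 7 libraries lay between 324.8 and 399.2. The log2 difference was 0.10 ± 0.18 (SE; limma adjusted p = 0.864), with a 95% interval of -0.29 to 0.49.

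Irak4 is the kinase that Myd88 recruits first. Its level was 198.9, 411.3, 223.1, 263.7 and 161.4 normalised counts in Rragc+/+ and 254.6, 206.4, 207.9 and 147.4 in RragcS74N/+ libraries. Rragc+/+ replicate 2 was far above the others and the remaining libraries of both genotypes were mixed. The log2 difference of -0.25 ± 0.25 (SE; limma adjusted p = 0.772) was -0.06 without Rragc+/+ replicate 2 and -0.40 with the GC trend removed. Csf1r, a monocyte and macrophage marker with a GC-rich 3′ end (57.6%), was also highest in Rragc+/+ replicate 2, at 338.9 normalised counts beside 71.06 to 189.3 in the other 8 libraries. Other such markers were mixed. The macrophage genes C1qa (29.21 normalised counts) and C1qb (30.38) were also highest in Rragc+/+ replicate 2. Adgre1 was at 51.41 there and highest in RragcS74N/+ replicate 1, at 52.38. In contrast, Ly6c2 was highest in RragcS74N/+ replicate 4 and C1qc in Rragc+/+ replicate 5. The macrophage genes Mrc1 and Vcam1 were at their lowest in Rragc+/+ replicate 2. Of 8 monocyte markers only Csf1r and Ly6c2 were listed (summed level 2202 to 3420 in Rragc+/+ and 2211 to 3990 in RragcS74N/+ libraries), and Ccr2, F13a1, Ms4a6c, Cx3cr1 and Klf4 were among those not listed. All 6 macrophage markers were listed, with a summed level of 104 to 214 normalised counts in Rragc+/+ and 88.9 to 133 in RragcS74N/+ libraries. The part of such cells in Irak4 or in the receptors was not tested.

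Irak3, the member of the kinase family that holds the pathway in check, had the smallest log2 difference of the 8. It was read at 92.2, 67.77, 60.92, 62.7 and 66.17 normalised counts in Rragc+/+ and at 74.26, 82.35, 67.03 and 59.57 in RragcS74N/+ libraries. Apart from Rragc+/+ replicate 1 the libraries were within a narrow band, and the log2 difference was 0.02 ± 0.18 (SE; limma adjusted p = 0.976), with a 95% interval of -0.37 to 0.42.

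**Figure D3:**
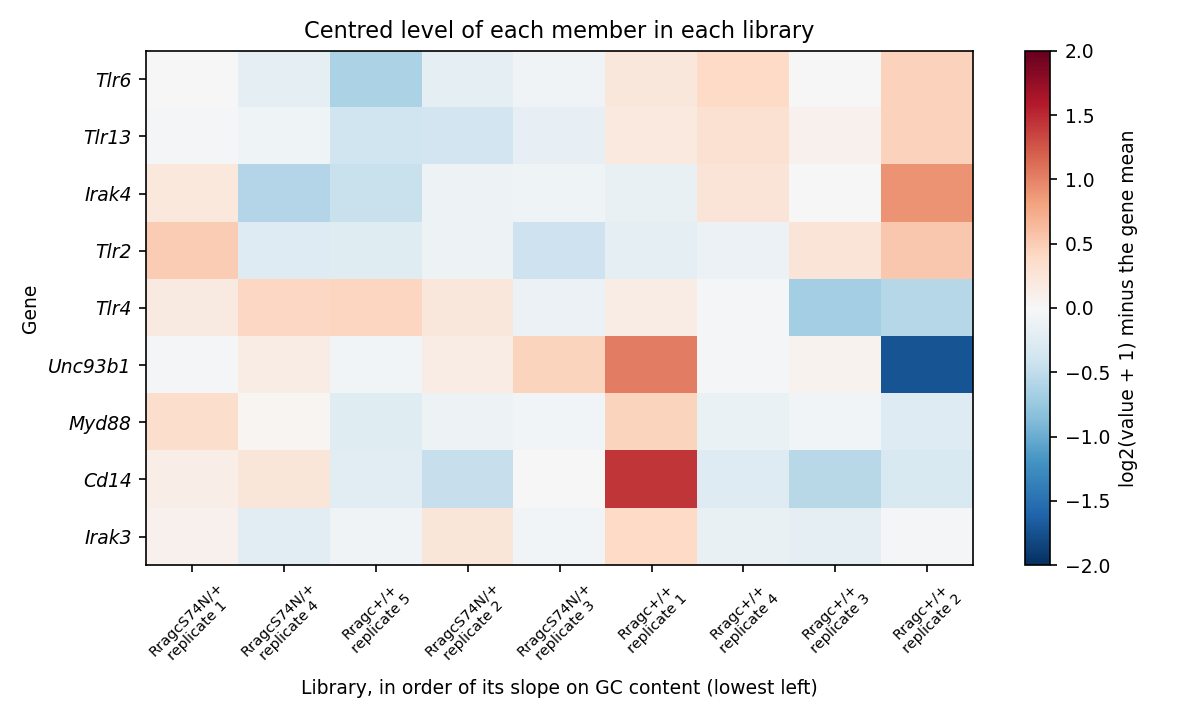
Level of each listed gene in each library as the log2 difference from that gene's mean over the 9 libraries. Unc93b1 spans the widest range, from -1.72 in Rragc+/+ replicate 2 to 1.02 in Rragc+/+ replicate 1, and the rows of Tlr6 and Tlr13 vary together.

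Ratios within a library compare partners in the pathway, and were taken between values to which 1 had been added, which weighs most on the low values of Cd14. Of 6 ratios planned, the 2 that involve Tlr1 could not be formed, and the other 4 were compared between genotypes with an exact permutation test (two-sided, smallest possible p 0.00794, Benjamini-Hochberg over the 4). None had an adjusted p below 0.05. Tlr6 to Tlr2 differed by -0.08 on the log2 scale (adjusted exact p = 0.762), Cd14 to Tlr4 by -0.36 and Irak3 to Irak4 by 0.28 (adjusted exact p = 0.582 for both). The difference of Cd14 to Tlr4 was -0.076 without Rragc+/+ replicate 1, and that of Irak3 to Irak4 was 0.074 without Rragc+/+ replicate 2. The ratio of Unc93b1 to Tlr13, an escort and its cargo, differed by 0.61 (adjusted exact p = 0.582) but rested on Rragc+/+ replicate 2, where the log2 ratio was -2.65 against -0.79 to 0.36 in the other Rragc+/+ and -0.46 to 0.14 in the RragcS74N/+ libraries. Without that library the difference was 0.13.

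Levels of the 9 genes were next compared with each other over the 9 libraries, in 36 pairs that share library, depth and base composition. Of these pairs 24 were positive and 12 negative, 7 had an unadjusted permutation p below 0.05 and 1 had an adjusted p below 0.05. That pair was Tlr6 and Tlr13, with a Pearson r of 0.92 (n = 9, exact permutation p = 0.00038, adjusted p = 0.0137) and a Spearman rho of 0.95 (exact permutation p = 0.000353, adjusted p = 0.0127). Without the 2 libraries farthest from the median r was 0.88, and with the GC trend removed it was 0.91 (adjusted exact permutation p = 0.0133 over 28 pairs). Within genotypes, with each value taken from its genotype's mean, r was 0.94, but the exact permutation p of 0.00382 became 0.138 once adjusted. Leaving out any 1 library gave an r between 0.89 and 0.96, and without Rragc+/+ replicate 1, 2 or 4 its adjusted p rose above 0.05. As background, 0.429% of all pairs of tested genes had a correlation at least as strong as this pair, and the median absolute r was 0.43 over the 36 pairs and 0.35 over all 22261128 pairs of tested genes. Cd14 and Myd88 came second, with r = 0.80 (n = 9, adjusted exact permutation p = 0.138) and 0.58 without the 2 farthest libraries. Irak4 correlated with Tlr6 (r = 0.78) and with Tlr2 (r = 0.75) over the n = 9 libraries, each with an adjusted exact permutation p of 0.138, and with Tlr13 (r = 0.73, adjusted exact permutation p = 0.165). Without the 2 libraries farthest from the receptor's median, these r were 0.61 for Tlr6, 0.41 for Tlr2 and 0.36 for Tlr13. The negative pairs with an unadjusted p below 0.05 were Tlr4 with Irak4 (r = -0.70) and Tlr2 with Unc93b1 (r = -0.66), both with an adjusted exact permutation p of 0.178 over n = 9. Without the 2 libraries farthest from the receptor's median, r was -0.73 for Tlr4 with Irak4 and -0.25 for Tlr2 with Unc93b1.

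**Figure D4:**
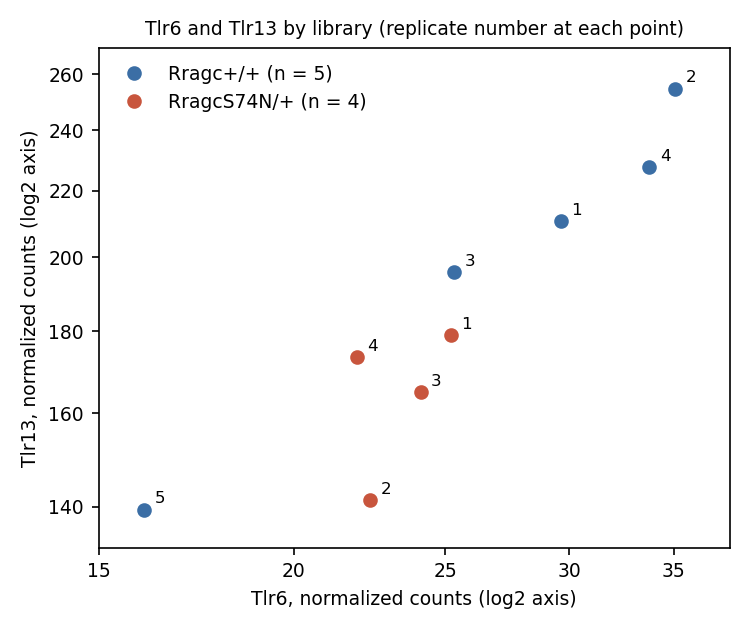
Tlr13 against Tlr6 in each library (normalised counts, both axes log2), with Rragc+/+ libraries (n = 5) and RragcS74N/+ libraries (n = 4) in different colours and the replicate number beside each point. The points follow a common line from Rragc+/+ replicate 5 at the bottom to Rragc+/+ replicate 2 at the top, and the 4 RragcS74N/+ libraries lie in its lower part.

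Because Tlr6 and Tlr13 varied together, the sequences around their starts are shown (RefSeq, mouse build GRCm38.p6, 250 bases before to 50 after each start, 5′ to 3′). Tlr6 has 2 entries on the minus strand of chromosome 5, at chr5:64959117-64959416 and chr5:64959999-64960298, and Tlr13 has 1 on the plus strand of the X chromosome, at chrX:106143025-106143324. Capitals mark a match to GAGGAA, the core bound by PU.1, the myeloid transcription factor.
Tlr13: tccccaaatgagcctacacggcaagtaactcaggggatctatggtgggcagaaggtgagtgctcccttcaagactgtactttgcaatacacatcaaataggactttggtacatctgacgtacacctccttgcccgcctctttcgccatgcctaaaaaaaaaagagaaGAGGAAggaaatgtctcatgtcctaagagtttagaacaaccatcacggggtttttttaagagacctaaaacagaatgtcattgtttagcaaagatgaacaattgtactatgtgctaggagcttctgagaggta
Tlr6 first entry: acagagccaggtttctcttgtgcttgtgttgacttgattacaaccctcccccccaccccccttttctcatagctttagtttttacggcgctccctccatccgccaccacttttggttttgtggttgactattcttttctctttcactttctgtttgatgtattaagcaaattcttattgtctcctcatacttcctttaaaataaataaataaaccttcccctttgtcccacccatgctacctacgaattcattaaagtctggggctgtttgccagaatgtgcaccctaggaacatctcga
Tlr6 second entry: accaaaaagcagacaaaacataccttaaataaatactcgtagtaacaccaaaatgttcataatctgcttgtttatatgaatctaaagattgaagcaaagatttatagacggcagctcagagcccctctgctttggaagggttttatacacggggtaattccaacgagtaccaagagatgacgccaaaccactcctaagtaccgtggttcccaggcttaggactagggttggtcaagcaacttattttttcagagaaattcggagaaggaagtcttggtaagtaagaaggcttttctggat
On either strand, GAGGAA was found in 1 place in Tlr13 and in neither entry of Tlr6, and 28.3% of 32851 promoter entries of this length hold it. Neither TGANTCA, the AP-1 element (7.81% of all entries), nor the κB consensus (8.46%) was found in Tlr13 or Tlr6. Of the 9 listed genes 6 had an entry, and those of Myd88 and Irak4 held none of these motifs. Irak3 held GAGGAA in 1 of its 2 entries, and the Tlr2 entry held 3 matches to the κB consensus, of which 2 overlap. These are matches of letters in a short window and not sites shown to be bound.

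The genes whose levels were most like those of the 3 highest members, out of 3475 that averaged 50 normalised counts or more, are given by their Pearson r over the 9 libraries as a description. Myd88 was most like Rab32 (0.94), a small GTPase of lysosome-related organelles. For Irak4 these were Lamp1 (0.98), a lysosomal membrane protein, and Zdhhc3 (0.97), a palmitoyltransferase. Irak4 was at 411.3 normalised counts in Rragc+/+ replicate 2, beside 147.4 to 263.7 in the other libraries, and no such r without that library is given. Tlr13 was most like Pgs1 (0.95), an enzyme of mitochondrial cardiolipin synthesis, and Sdf4 (0.93), a calcium-binding protein of the Golgi.

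The wider pathway was taken from 6 lists with 85 genes, of which 57 were listed and 54 tested. None of the 54 had an adjusted p below 0.05 by limma, 5 had an unadjusted p below 0.05, 25 were lower and 29 higher in RragcS74N/+ libraries, beside 5.81% of all genes under that p and 46.6% lower. Several of the differences given next depend on Rragc+/+ replicate 2 or on the GC trend, and the values without them follow where they move by more than 1.5 times or where the unadjusted p crosses 0.05. Of 7 other Toll-like receptors only Tlr5, the flagellin receptor, and Tlr7, a receptor of single-stranded RNA, were listed, at means of 23.2 ± 5.22 and 15.3 ± 7.40 normalised counts (SD, n = 5) in Rragc+/+ libraries. Their log2 differences were -0.37 ± 0.25 (SE) for Tlr5 and 0.42 ± 0.33 (SE) for Tlr7, the latter at 0.24 without Rragc+/+ replicate 2.

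Among 5 tested co-receptors and chaperones 2 were lower and 3 higher, with a median log2 difference of 0.02. Cnpy3, a chaperone needed for the folding of Toll-like receptors, averaged 95.3 ± 42.0 normalised counts in the 5 Rragc+/+ libraries and 55.8 ± 11.7 in the 4 RragcS74N/+ libraries (SD), with a log2 difference of -0.69 ± 0.28 (SE; limma unadjusted p = 0.0256, adjusted p = 0.713). All 4 RragcS74N/+ values of Cnpy3 lay below the Rragc+/+ median, yet the ranges overlapped, and without Rragc+/+ replicate 2 the difference was -0.47 with an unadjusted limma p of 0.0527. Slc15a4, a lysosomal transporter used in Tlr7 and Tlr9 signalling, had a log2 difference of -0.42 ± 0.21 (SE; limma adjusted p = 0.713).

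Downstream of Myd88, 21 adaptors and proximal signalling genes were tested, 9 lower and 12 higher, with a median of 0.03 and none with an unadjusted p below 0.05. Irf3 at -0.33 and Chuk at 0.52 had the smallest unadjusted p (limma, 0.133 and 0.144), but Irf3 was at -0.073 with the GC trend removed and Chuk at 0.23 without Rragc+/+ replicate 2. Among 11 tested genes that restrain the pathway 5 were lower and 6 higher, with a median of 0.01. Nfkbie, an inhibitor that retains NF-κB in the cytoplasm, differed by -0.61 ± 0.27 (SE; limma unadjusted p = 0.0405, adjusted p = 0.713), and Tnip1, a partner of the ubiquitin-editing enzyme A20, by -0.71 ± 0.35 (SE; limma adjusted p = 0.713). Without Rragc+/+ replicate 2, where Tnip1 was at 338.9 normalised counts, its difference was -0.40, and the unadjusted p of Nfkbie was 0.0743.

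Of the genes that the pathway induces, 8 of 12 tested were lower, with a median of -0.16 and 3 with an unadjusted p below 0.05 (all lower, where 3.81% of all genes were). Ier3, an early response gene, was read at 334.6, 567.9, 386.2, 475.9 and 327.9 normalised counts in Rragc+/+ and at 258.6, 320.2, 326.9 and 290.5 in RragcS74N/+ libraries. Its genotypes did not overlap, by a margin of 1 count between the lowest and the highest library. Of the 54 tested pathway genes Ier3 was the only 1 without overlap, beside 1.69% of all genes tested. The log2 difference of Ier3 was -0.46 ± 0.19 (SE, limma unadjusted p = 0.0301, adjusted p = 0.713). Acod1, which makes itaconate, differed by -0.73 ± 0.31 (SE; limma unadjusted p = 0.0335, adjusted p = 0.713), and the other of the 3 was Plaur, the urokinase receptor, named after its value was seen, at -0.56 ± 0.24 (SE; limma unadjusted p = 0.0346, adjusted p = 0.713). Ier3, Acod1 and Plaur were each highest in Rragc+/+ replicate 2, and without that library the unadjusted p was 0.0663 for Ier3 and 0.0769 for Acod1. No value without that library is given for Plaur, which was at 628.6 normalised counts there beside 219.2 to 404.9 in the others. The 3 tested interleukin receptor genes that signal through MyD88 had log2 differences of 0.24 (Il1rap), 0.20 (Il18r1) and 0.0033 (Il18rap), with unadjusted p of 0.407, 0.454 and 0.991 by limma. That of Il1rap was 0.045 without Rragc+/+ replicate 2 and 0.073 with the GC trend removed, and that of Il18r1 was 0.099 with the GC trend removed.

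**Figure D5:**
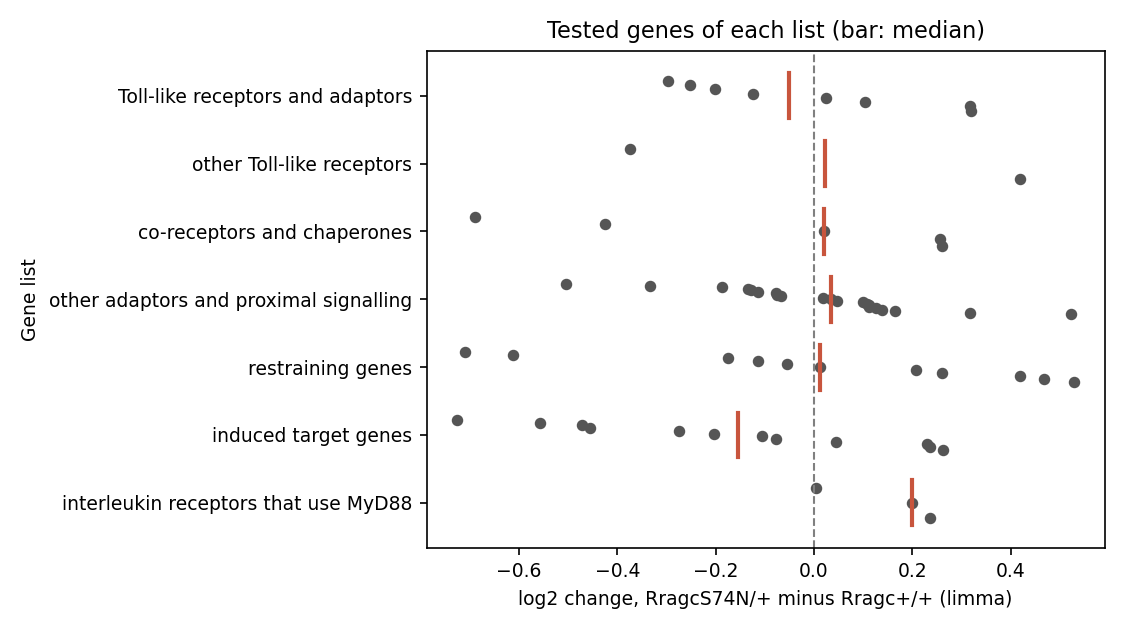
Log2 difference (RragcS74N/+ minus Rragc+/+) of every tested gene of the set and of the 6 pathway lists; each point is a gene and the bar is the list's median. Points lie on both sides of 0 except for the interleukin receptors, at 0.0033 to 0.24, and the median of the induced target genes is the lowest, at -0.16.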

How the data were processed

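RNA of neutrophils (CD45+ CD11b+ Ly6G+) sorted from bone marrow of 5 Rragc+/+ and 4 RragcS74N/+ mice was made into stranded QuantSeq 3′ libraries with molecular identifiers. The paper reports 5 mice of each genotype, and why the deposited data hold 4 RragcS74N/+ libraries is not given. The authors used TopHat2 2.0.10 and Bowtie 1.0.0 for alignment to GRCm39, HTSeq 0.6.1 for counting and DESeq2 for scaling, per the submitters' processing notes and the paper's methods; whether identifiers were collapsed is not given in the sources used here. The deposited values are a signal, read counts per gene divided by 1 size factor per library. In each library 100% of values were whole numbers of reads once divided by the value of 1 read (tolerance 0.01). Listed genes had a read in at least 7 libraries and at least 8 reads in 1 of them, so a gene not listed may still have been read. Every column was matched to a sample (0 without one).

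Genes averaging 10 or more were fitted with limma 3.58.1 (R 4.3.3) on log2(value + 1), with genotype as the only term, trended moderation, Benjamini-Hochberg adjustment over all genes and a threshold of 0.05. This scale understates changes of low genes. Alternatives were edgeR 4.0.16 (quasi-likelihood) and DESeq2 1.42.0 on recovered reads, pseudocounts of 0.5 and 4, a filter at 50 or none, equal totals, array quality weights, untrended moderation, removal of each library's loess trend (span 0.5) on GC content of the last 500 bases or on transcript length (GENCODE M21, 7067 of 7197 genes matched) and leaving out each library. Fits were tested on simulated data. The 10 genes and all lists were chosen with earlier results of these data known. The text names all 10, the 2 genes of smallest unadjusted p in each pathway list with any that passed, and the 2 genes most like each of the 3 highest, of which 1 is not reported here. Replicates are separate samples, and p-values measure the spread between these libraries.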

Additional observations from a re-analysis of the deposited data

Results flagged for a closer look

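In 50 groups of libraries examined for a lone high or low value, 4 had one whose gap to its nearest neighbour, as a share of the group's range, reached Dixon's critical value (0.829 for 4 samples and 0.710 for 5). Chance gives about 1 in 20 groups. Rragc+/+ replicate 1 was the high library in 3 of them, with a share of 0.828 for Cd14, 0.743 for Irak3 and 0.718 for Myd88. RragcS74N/+ replicate 4 was the low library for Tlr5, with a share of 0.847 and 11.5 normalised counts beside 18.8 to 20.6 in the other RragcS74N/+ libraries.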

How the results depend on the processing

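Adjusted calls stayed at 0 for the 8 tested genes and for the pathway genes under all 20 alternatives of the fit. Of the log2 differences of the named set, 153 values kept direction and side of the threshold and 7 reversed. Irak3 was -0.036 after removal of the GC trend and lay between -0.051 and 0.13 when 1 library was left out (negative without Rragc+/+ replicate 3 or 4 or RragcS74N/+ replicate 1 or 2). Unc93b1 ranged from -0.078 (without Rragc+/+ replicate 2) to 0.61, and Cd14 was 0.31 without Rragc+/+ replicate 1. The count with an unadjusted p below 0.05 was 1 with array quality weights (Tlr13, -0.36, where 11.5% of all genes passed) and 0 to 1 on leaving out a library; the count without overlap was 0 to 2, the upper values both without Rragc+/+ replicate 5. Steps of the order that passed were 4 to 6, with the order taken again from the libraries kept. Pairs with an adjusted correlation p below 0.05 fell from 1 to 0 within genotypes and ranged from 0 to 1 on leaving out a library. The log2 ratio difference of Tlr6 to Tlr2 ranged from -0.21 to 0.080. The cause was not tested in any of these. Low read numbers limit what can be detected for Cd14 and Tlr6. No paired analysis was possible because replicates are unnumbered in the labels.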
